A study of Mus musculus with 6 samples.

Results

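The genes described here carry a mouse symbol of the form Zfp followed by a number and at most 1 letter, and had a mean normalised value of at least 100 in both deposited tables, the 4 h table and the 8 h table. They were thus selected on their level, and 1 of them, Zfp944, was named in the choice because it was lower after 8 h. Each mean covers untreated and treated libraries. A gene could therefore meet the rule through its untreated libraries while low after treatment, or the other way round. Of 402 Zfp-named genes among the 55401 genes of each table, 358 had a mean above 0 and 192 met the rule, against 9523 genes of any name that reached 100 in both tables. A further 17 Zfp genes reached 100 in the 8 h table only and 2 in the 4 h table only. The 8 h table runs on a scale 1.19 times that of the 4 h table for the same untreated libraries. Just inside the limit were Zfp979, with means of 101 in the 4 h table and 151 in the 8 h table, and Zfp84, with means of 103 and 129 in the same order. Just outside were Zfp738, with 98.9 in the 4 h table and 162 in the 8 h table, and Zfp994, with 98 and 153 in that order.

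Nascent RNA was captured from iMEF cells, an immortalised line of mouse embryo fibroblasts, that had been exposed to dTAG-13 for 4 h or 8 h or had been left without it, with 2 libraries per group and 6 in all. In every group exon 4 of both endogenous Ash2l alleles had been excised, and the cells lived on a lentiviral human ASH2L that carries an FKBP(F36V) degradation tag and HA epitopes. dTAG-13 joins this tag to a ubiquitin ligase, so that the fusion protein is destroyed while its gene stays in place. The study worked with individual clones of this line, no label gives the clone of each library, and no source states whether the 2 libraries of a group were grown apart. The p-values therefore reflect how far these libraries scatter, which may be technical. RNA made in a short window around each time point was tagged with an ethynyl nucleoside, biotinylated and pulled down before sequencing. Per the paper the window began before and ended after the time point, and the RNA was selected for poly-A. The signal is thus polyadenylated RNA gathered over the window, and exposure to dTAG-13 had passed the named time when labelling ended.

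Zinc finger proteins of the C2H2 class hold a zinc ion between a pair of cysteines and a pair of histidines, and each finger can read a few bases of DNA or bind RNA. The largest branch in mammals joins an array of such fingers to a KRAB domain, which recruits the co-repressor TRIM28 and, with it, the histone methyltransferase SETDB1, so that chromatin at the bound site is silenced. Many of these KRAB genes arose by tandem duplication and lie in clusters, and they are known above all for silencing transposable elements. Outside this branch the Zfp symbols cover unrelated proteins that act in transcription, splicing, RNA decay and ribosome quality control. ASH2L belongs to the core that all COMPASS/KMT2 complexes share, and these enzymes methylate histone H3 at lysine 4, at enhancers as well as at promoters, many of which are rich in CG dinucleotides.

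All 192 genes matched a protein-coding gene of the GENCODE M21 annotation (GRCm38) by Ensembl identifier. They lay on 20 chromosomes, with 44 on chromosome 7, 24 on chromosome 17, 15 on chromosome 8 and 14 on chromosome 13. The longest annotated coding sequence was translated for each. A KRAB A pattern was found in 85 of the proteins and not in the other 107. A protein without a match can still hold a KRAB domain, and how many were missed was not determined. Proteins with the pattern held a median of 12 spacings of the C2H2 type (range 2 to 30), against a median of 7 in those without it. The array was longest in Zfp462, with 33 matches. No match was found in 7 members, among them Zfp36, whose fingers are of the CCCH type, Zfp503 and Zfp703. A total of 66 members lay in 13 clusters, and 46 of these 66 carried the KRAB pattern. A cluster was defined as 3 or more members whose lower coordinates were each within 250 kb of the next.

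The promoters are shown because they are among the sites where the complex under study acts, and because their base composition divided the family. Of the 192 genes, 158 matched a RefSeq promoter entry of GRCm38.p6, a window from 250 bases before to 50 bases after the start. The motif counted was CG, which reads the same on both strands, and 94.6% of all 32851 windows in the table held at least 1. The median was 11 CG dinucleotides in the 73 matched KRAB members, 21 in the 85 matched members without the pattern, and 21 in the 9996 matched genes among all those tested. At least 10 CG were present in 60.3% of the KRAB members and in 87.1% of the others. Below are the windows of Zfp944, a KRAB gene with 22 CG (chr17:22361351-22361650, minus strand), of Zfp81, a KRAB gene with 12 CG near the median of its class (chr17:33358829-33359128, minus strand), and of Zfp148, a gene without the pattern with 32 CG (chr16:33380525-33380824, plus strand). Capitals mark each CG.
Zfp944: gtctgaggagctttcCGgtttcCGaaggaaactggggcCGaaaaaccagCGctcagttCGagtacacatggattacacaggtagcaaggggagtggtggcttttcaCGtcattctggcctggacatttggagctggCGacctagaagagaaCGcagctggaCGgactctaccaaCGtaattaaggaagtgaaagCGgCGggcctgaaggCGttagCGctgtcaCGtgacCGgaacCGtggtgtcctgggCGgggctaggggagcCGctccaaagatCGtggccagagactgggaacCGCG
Zfp81: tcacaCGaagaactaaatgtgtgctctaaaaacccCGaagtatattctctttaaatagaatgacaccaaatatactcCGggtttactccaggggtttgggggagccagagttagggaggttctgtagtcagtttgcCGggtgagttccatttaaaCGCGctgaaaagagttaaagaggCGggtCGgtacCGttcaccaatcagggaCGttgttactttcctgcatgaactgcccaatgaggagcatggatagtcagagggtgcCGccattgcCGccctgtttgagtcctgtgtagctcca
Zfp148: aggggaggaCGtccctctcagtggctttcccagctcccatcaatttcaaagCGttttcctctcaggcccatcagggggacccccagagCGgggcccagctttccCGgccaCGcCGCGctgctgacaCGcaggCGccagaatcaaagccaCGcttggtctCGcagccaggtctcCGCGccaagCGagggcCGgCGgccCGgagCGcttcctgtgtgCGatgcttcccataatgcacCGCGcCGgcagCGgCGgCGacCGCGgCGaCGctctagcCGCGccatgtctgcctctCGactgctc

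**Figure D1:**
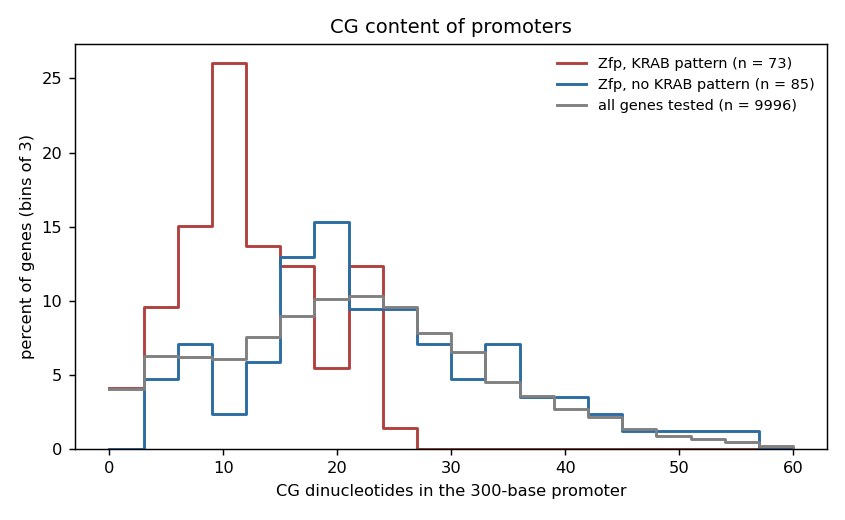
Number of CG dinucleotides in the 300-base promoter (x axis, bins of 3) and percent of genes in each bin (y axis) for Zfp genes with the KRAB pattern (n = 73), Zfp genes without it (n = 85) and all genes tested (n = 9996). The KRAB genes peak around 10 CG and none exceeds 25, whereas the other Zfp genes follow the curve of all genes.

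The libraries held between 10569331 and 32643616 assigned reads. Fibroblast genes were abundant: Col1a1, a fibrillar collagen, had values between 6486 and 7688 in the 6 libraries, and Col3a1, Fn1, Vim and Dcn lay above the range in which library values were resolved. The endothelial markers Pecam1 (4744 to 5791) and Cdh5 (2271 to 2648) were also abundant in every library, and the epithelial markers Epcam (193 to 327) and Cdh1 (141 to 266) were present in every library. Krt8, another epithelial gene, had values from 26.8 to 85.1, the leukocyte gene Ptprc from 0 to 37.6 and the pluripotency gene Nanog from 1.36 to 6.48, while the pluripotency genes Pou5f1 and Zfp42 were at 0. The leukocyte gene Cd48 had 49.5 and 36.7 in untreated libraries and 0 in each library after 4 h and 8 h, and did not pass the test (adjusted p 0.975 at 4 h and 0.924 at 8 h by limma). Summed over these 10 markers of other cells, the level was 7987 and 7732 in untreated libraries, 8726 and 8204 after 4 h and 8255 and 8553 after 8 h. Their part in the results was not tested. Ash2l, at 755 and 598 in untreated libraries, 777 and 914 after 4 h and 780 and 1001 after 8 h, does not report on the degradation, which acts on the protein. Library values are the whole numbers behind the deposited means divided by the authors' size factors; the 2 libraries of a group are called a and b, since replicate numbers could not be assigned to them.

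Over the family as a whole the differences after ASH2L degradation were centred on 0. Dividing by size factors brings the libraries to a common level. A change shared by all genes could therefore not show in the medians below. The median log2 difference over the 192 members was 0.0014 for 8 h minus untreated, against -0.0069 over the 14077 genes tested. For 4 h minus untreated it was -0.028 over the members, against -0.013 over all genes tested. After 8 h 96 members were above and 96 below their untreated mean, and after 4 h 91 were above and 101 below. Between the treated groups the median (8 h minus 4 h) was -0.0015. The median level over members was 262 in untreated libraries, 255 after 4 h and 245 after 8 h.

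No member passed the test in any comparison. Limma on log2(value + 1), with Benjamini-Hochberg adjustment over all 14077 genes, called 0 members and 0 genes (0%) at an adjusted p under 0.05 for 8 h against untreated, 0 (0%) for 4 h against untreated and 0 (0%) for 8 h against 4 h. The lowest adjusted p of any member was 0.924 at 8 h, 0.975 at 4 h and 0.996 between the treated groups. Limma-voom on the reads likewise called 0 genes in all 3 comparisons, and limma without the trend called 31 genes at 8 h and 40 at 4 h, of which 0 were members. At an unadjusted p under 0.05, 8 members were counted for 8 h against untreated, which is 4.17% of the family where 4.98% of all genes tested met that limit. The 8 include Zfp944, which was named for this contrast. For 4 h against untreated 7 members (3.65%) did, where 4.24% of all genes did, and for 8 h against 4 h 7 members (3.65%), where 4.28% of all genes did. In all 3 comparisons, which share libraries, the family's share was close to that of all genes tested.

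By the order of the libraries the family's shares also lay near the background. The widest gap was for 8 h below 4 h, and it was not tested. Both libraries lay above both untreated ones in 27 members after 8 h (14.1%, background 16.5%) and in 26 after 4 h (13.5%, background 15.6%). Both lay below in 33 members after 8 h (17.2%, background 17.3%) and in 30 after 4 h (15.6%, background 16.7%). Zfp944, named for its decrease at 8 h, is among the 33 and among the 30. The 8 h libraries lay above both 4 h libraries in 29 members (15.1%, background 16.4%) and below them in 39 (20.3%, background 16%, and 17% of the 9333 tested genes that reached the same level limit).

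The spread of the members' differences was as wide as the spread between libraries of 1 group. The SD over members of the log2 difference was 0.474 for 8 h minus untreated, 0.485 for 4 h minus untreated and 0.48 for 8 h minus 4 h. The difference between libraries a and b had an SD over members of 0.657 in the untreated group, 0.798 in the 4 h group and 0.613 in the 8 h group. Pooled and put on the scale of a difference between 2 means of 2 libraries, this is 0.491. Over the 9333 genes tested whose mean reached 100 in both tables, the same figures were 0.357 at 8 h, 0.347 at 4 h and 0.353 for the pooled library spread.

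**Figure D2:**
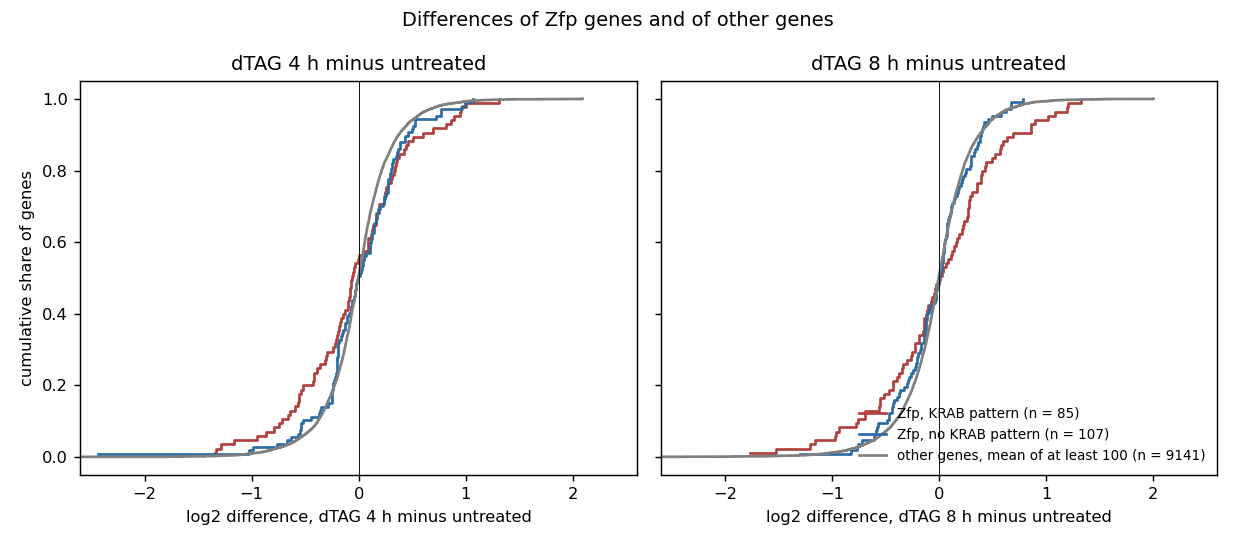
Cumulative share of genes (y axis) by log2 difference to untreated cells (x axis), after 4 h (left) and 8 h (right), for Zfp genes with the KRAB pattern (n = 85), Zfp genes without it (n = 107) and other genes with a mean of at least 100 (grey). All curves cross the middle near 0, and the curve of the KRAB genes is the widest after 8 h.

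KRAB members were centred like the rest of the family, and their differences were spread more widely, though not at every level. Their median log2 difference was 0.0048 for 8 h minus untreated, against -0.002 in members without the pattern, and -0.066 for 4 h minus untreated, against -0.0028 in members without it. After 8 h 43 KRAB members were above and 42 below the untreated mean. The SD was 0.592 in KRAB members and 0.356 in the others for the 8 h differences, and 0.531 in KRAB members and 0.446 in the others for the 4 h differences, while the pooled library spread on the same scale was 0.553 in KRAB members and 0.429 in the others. A log2 difference beyond 1 in either direction was seen in 9 KRAB members after 8 h and in 1 member without the pattern, and after 4 h in 6 KRAB members and in 3 without it. KRAB genes were also the weaker ones, with a median level of 194 against 303. Among members with a mean value from 100 to under 200 the SD at 8 h was 0.716 in the 43 with the pattern and 0.372 in the 26 without it, from 200 to under 400 it was 0.466 (n = 28) against 0.414 (n = 35), and from 400 up it was 0.194 (n = 13) against 0.224 (n = 44). In the same classes the SD at 4 h was 0.606 in members with the pattern against 0.678 in those without it, 0.507 against 0.434, and 0.247 against 0.206, so that the order of the 2 kinds turned round in the lowest class at 4 h and in the highest at 8 h.

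The size of a difference followed the level. In the 69 members with a mean value from 100 to under 200 the SD of the 8 h differences was 0.611, and it was 0.434 in the 63 members from 200 to under 400, 0.256 in the 34 from 400 to under 800 and 0.141 in the 23 from 800 up. Genes without a Zfp symbol showed 0.57, 0.408, 0.292 and 0.182 in the same classes. The other 3 members, Zfp319, Zfp595 and Zfp185, had mean values of 98.3, 93.4 and 86.0 on the common scale.

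**Figure D3:**
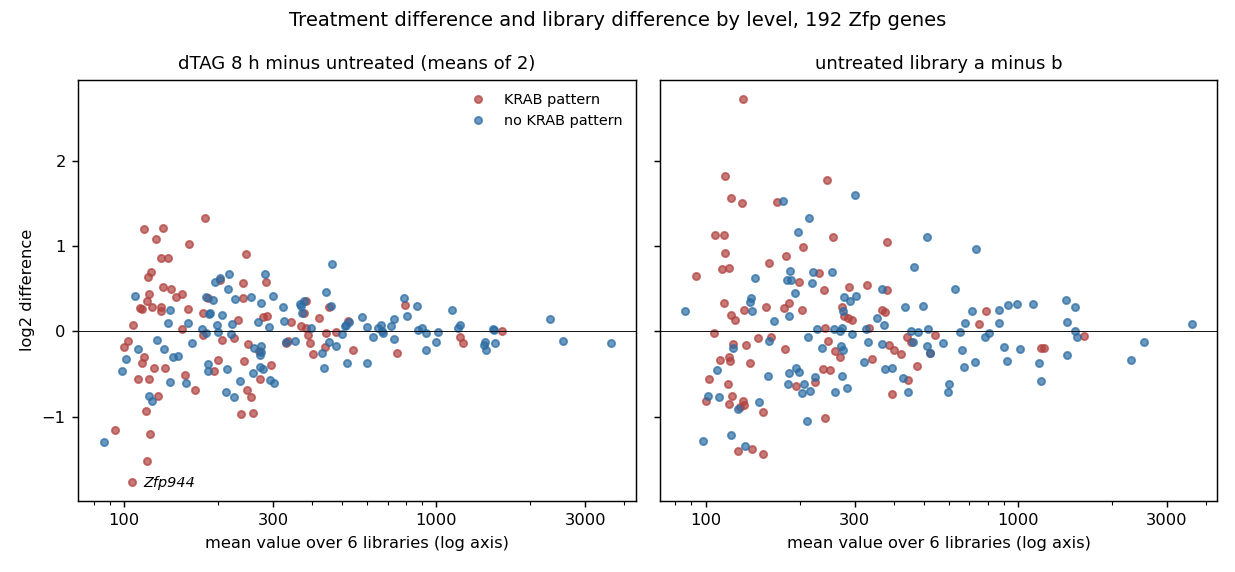
Log2 difference (y axis) of each of the 192 Zfp genes against its mean value over 6 libraries (x axis, log scale), for 8 h minus untreated, means of 2 libraries (left), and for untreated library a minus b (right), with KRAB genes in red. Both clouds narrow as the level increases, and genes under a mean of 200 reach differences beyond 1 in both panels.

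Zfp944 is a KRAB gene on chromosome 17 (22337989 to 22361400, minus strand, GRCm38) that encodes 492 residues with 11 C2H2 spacings. Its value was 181 and 184 in the untreated libraries, 82.4 and 79.4 in the 4 h libraries and 38.1 and 73.5 in the 8 h libraries. The treated libraries were all below the untreated ones, and the 8 h libraries were the lowest and differed from each other by more than those of the other groups. These values rest on 168 and 114 reads in untreated cells, 89 and 80 after 4 h and 73 and 78 after 8 h. The log2 difference for 8 h minus untreated was -1.76, the largest decrease of the family, and is given as a description only, because the gene was chosen by this contrast. For 4 h minus untreated it was -1.16 with an SE of 0.60 and an adjusted p of 0.975 by limma, a comparison that uses the same untreated libraries. The 8 h minus 4 h difference was -0.60 with an SE of 0.60. Of all stretches of 75 bases in its transcripts, 4.76% also occur in other genes, mostly in its paralogue Zfp942, and reads from those cannot be assigned with certainty.

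The other members whose 8 h libraries both lay below the untreated ones were led by Zfp868, a KRAB gene, with 45.8 and 40.6 after 8 h against 93.7 and 170 untreated, a log2 difference of -1.53 (SE 0.69). Its 4 h libraries disagreed, at 279 and 83.2. Zfp185 had 58 and 47.1 after 8 h against 141 and 119 untreated. Despite its symbol it holds no C2H2 match and encodes a LIM domain protein linked to the actin cytoskeleton. Zfp747 had 89.2 and 67.1 after 8 h against 193 and 168 untreated, a log2 difference of -1.21 (SE 0.52), and 19.3% of its 75-base stretches are shared with other genes. Zfp595 had 51.6 and 65.1 after 8 h against 164 and 104 untreated. Zfp930 had 109 and 208 after 8 h against 253 and 346 untreated, and Zfp869 had 223 and 123 after 8 h against 298 and 352 untreated. Zfp229 had 111 and 67.7 after 8 h against 135 and 206 untreated. In none of these did the difference pass the test, and the adjusted p was 0.924 for Zfp868, Zfp747, Zfp930 and Zfp869 alike by limma. Zfp868, Zfp185, Zfp747, Zfp595 and Zfp229, like Zfp944, had an 8 h mean under 100 and an untreated mean above it. Their untreated libraries helped them to meet the level rule, so the choice favoured a decrease in them. Zfp930, Zfp868 and Zfp869 all lie on chromosome 8 between positions 69209038 and 69710724. The next member there, Zfp866, had 283 and 184 after 8 h against 264 and 164 untreated.

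In the opposite direction Zfp81 stood first after 8 h, with 356 and 226 in the 8 h libraries against 153 and 82.6 in the untreated ones, a log2 difference of 1.33 (SE 0.52). Its 4 h libraries, at 90.7 and 181, overlapped the untreated ones. Zfp53 had 205 and 129 after 8 h against 51.7 and 94.8 untreated, and Zfp84 had 143 and 140 after 8 h against 116 and 32.1 untreated. In Zfp84 the untreated libraries differed from each other more than the groups did. Zfp799 had closely matched libraries in each group, with 115 and 121 untreated, 122 and 129 after 4 h and 266 and 216 after 8 h, a log2 difference for 8 h minus untreated of 1.02 (SE 0.44). All 4 are KRAB genes. Zfp280d had 672 and 524 after 8 h against 446 and 265 untreated, and Zfp703 had 279 and 302 after 8 h against 142 and 231 untreated. Zfp820 had 138 and 94.2 after 8 h against 53.8 and 91.7 untreated, its lower 8 h library lying just above the higher untreated one. None of these passed the test, with an adjusted p of 0.924 for Zfp81, Zfp799 and Zfp280d. Zfp53, Zfp84 and Zfp820 had an untreated mean under 100 and met the level rule through their treated libraries.

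**Figure D4:**
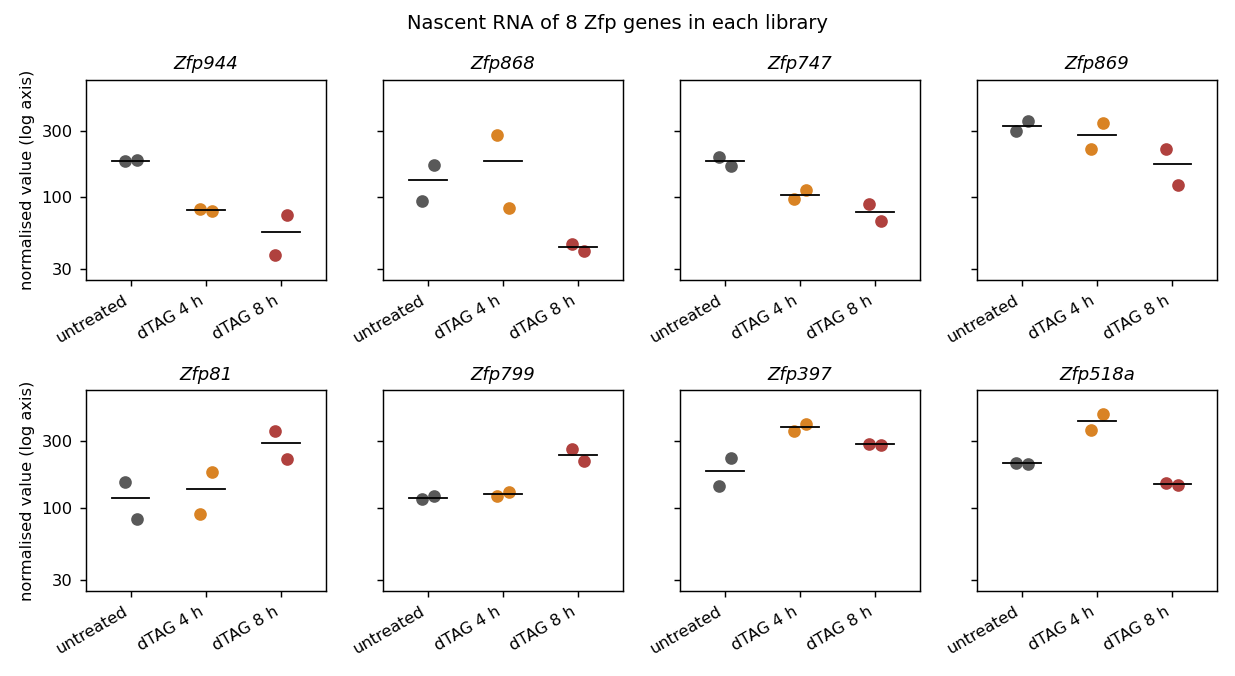
Normalised value (y axis, log scale) of 8 Zfp genes in each library, with 2 points per group and a line at their mean, in untreated cells and after 4 h and 8 h of dTAG-13. Zfp944, Zfp868, Zfp747 and Zfp869 have both 8 h libraries below the untreated ones, Zfp81, Zfp799 and Zfp397 have both above, and Zfp518a is above after 4 h and below after 8 h.

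After 4 h the members that stood highest among those with separate libraries were Zfp820, with 175 and 176 against 53.8 and 91.7 untreated, and Zfp397, with 355 and 402 against 142 and 226 untreated. Their log2 differences for 4 h minus untreated were 1.31 (SE 0.55) and 1.07 (SE 0.35). Zfp397 stayed above the untreated libraries after 8 h, at 289 and 283. Zfp729a had 139 and 140 after 4 h against 42 and 113 untreated. Zfp518a had 366 and 472 after 4 h against 210 and 206 untreated. Zfp983 had 279 and 236 after 4 h against 153 and 128 untreated. Zfp51, in the same cluster on chromosome 17 with other members in between, had 333 and 304 after 4 h against 146 and 222 untreated. Zfp11 had 141 and 133 after 4 h against 67.8 and 93.3 untreated, and Zfp954 had 158 and 147 after 4 h against 89.4 and 99.4 untreated. None passed the test at 4 h, and the adjusted p was 0.975 for Zfp820, Zfp397 and Zfp518a by limma. Zfp820, Zfp729a, Zfp11 and Zfp954 had an untreated mean under 100 and met the level rule through their treated libraries. The choice therefore favoured an increase in them.

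The lowest at 4 h was Zfp72, with 106 and 12.1 against 250 and 162 untreated. Its 8 h libraries, at 194 and 137, overlapped the untreated ones, and the 12.1 rests on 12 reads, the fewest of any member in any library. Zfp141 had 79.6 and 55.3 after 4 h against 178 and 162 untreated, and Zfp597 had 130 and 187 after 4 h against 264 and 382 untreated. Zfp426 had 101 and 57.2 after 4 h against 166 and 132 untreated, and Zfp316 had 282 and 174 after 4 h against 390 and 355 untreated. Zfp747 and Zfp185 were below the untreated libraries at this time as well, at 96.3 and 112 for Zfp747 and 114 and 36.9 for Zfp185. No difference of these members passed the test at 4 h, with an adjusted p of 0.975 for Zfp72, Zfp141 and Zfp597 by limma. Zfp72, Zfp141, Zfp426 and Zfp185 had a 4 h mean under 100 and an untreated mean above it. Their untreated libraries helped them to meet the level rule, so the choice favoured a decrease in them too.

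The most abundant members were nearly level. Zfp706, which encodes a protein of 76 residues with a single finger, had 3341 and 3485 after 8 h, against 3866 and 3649 untreated. Zfp207, a spindle and kinetochore factor that binds BUB3, had 2421 and 2382 after 8 h against 2491 and 2723 untreated. Zfp106, an RNA-binding protein, had 2224 and 2501 after 8 h against 1899 and 2403 untreated. Zfp871, the strongest KRAB member, had 1508 and 1782 after 8 h against 1604 and 1665 untreated, and Zfp664 had 1561 and 1261 after 8 h against 1514 and 1585 untreated. Their log2 differences for 8 h minus untreated ran from -0.14 to 0.14, with SEs between 0.11 and 0.15.

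Of 11 genes listed for work on RNA and ribosomes, 9 met the level rule and 0 passed the test at 8 h or 4 h. Their median log2 difference was 0.040 for 8 h minus untreated and 0.13 for 4 h minus untreated. After 8 h 2 of the 9 had both libraries above (background 16.5%) and 1 had both below the untreated ones (background 17.3%). Zfp36, the mRNA decay factor tristetraprolin, had 608 and 569 after 8 h against 499 and 547 untreated, a log2 difference of 0.17 (SE 0.23). Zfp598, a ubiquitin ligase that senses collided ribosomes, had 911 and 818 after 8 h against 761 and 771 untreated, and Zfp622, a factor of large ribosomal subunit maturation, had 881 and 819 after 8 h against 878 and 1119 untreated. Zfp830, a splicing-linked protein, had 290 and 372 untreated, 266 and 196 after 4 h and 347 and 464 after 8 h, so that the means of the treated groups lay on either side of the untreated mean. Zfp326, of the complex that links RNA polymerase II to splicing, and Zfp638, a large nuclear protein, had 8 h differences of 0.040 (SE 0.18) and 0.034 (SE 0.18).

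Of 14 genes listed as chromatin and transcription cofactors, 10 were members and 0 passed the test. The median log2 difference was -0.14 for 8 h minus untreated and -0.11 for 4 h minus untreated, and after 8 h 2 members had both libraries above (background 16.5%) and 3 both below the untreated ones (background 17.3%). Zfp410, which activates the NuRD remodeller gene Chd4, had 288 and 190 after 8 h against 412 and 310 untreated, a log2 difference of -0.61 (SE 0.36). Chd4 itself had 3923 and 3567 after 8 h against 3986 and 3394 untreated. Zfp532, a partner of the reader protein ZMYND8, had 246 and 221 after 8 h against 341 and 350 untreated, and its relative Zfp592 had 414 and 437 after 8 h against 377 and 358 untreated. Zfp516, a regulator of brown fat genes, had 774 and 1062 after 8 h against 760 and 714 untreated. Zfp217, a co-repressor, had 261 and 110 after 8 h against 238 and 272 untreated, and Zfp91, a ubiquitin ligase, had 1489 and 1269 after 8 h against 1657 and 1538 untreated. The 8 h differences of Zfp451, a SUMO ligase, of Zfp462 and Zfp644, partners of the H3K9 methyltransferases G9a and GLP, and of Zfp827 were 0.075 (SE 0.20), -0.065 (SE 0.30), 0.012 (SE 0.16) and -0.26 (SE 0.29).

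The 6 listed DNA-binding regulators without a match to the KRAB pattern were all members, and 0 passed the test. Zfp143, an activator bound at many promoters, had 260 and 236 after 8 h against 251 and 361 untreated. Zfp148, whose promoter is shown above, had 1531 and 1608 after 8 h against 1545 and 1541 untreated, a log2 difference of 0.024 (SE 0.14). Zfp281, a factor of pluripotent cells that binds GC-rich sites, had 1238 and 1501 untreated, 1812 and 1535 after 4 h and 1107 and 1415 after 8 h. The 8 h differences of Zfp64, Zfp131 and Zfp263 were 0.40 (SE 0.42), 0.049 (SE 0.26) and 0.11 (SE 0.34).

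Among 7 genes listed for development and for fibroblast or adipocyte fate, 6 were members and 0 passed the test. All 6 were below their untreated mean after 4 h, with log2 differences from -0.24 to -0.11, while after 8 h 5 were below it. Zfp521, an inhibitor of the adipocyte fate, had 807 and 642 after 8 h against 675 and 865 untreated, and Zfp467, a promoter of that fate, had 172 and 126 after 8 h against 168 and 349 untreated. Zfp503 and its relative Zfp703, co-repressors of the NET family, had 8 h differences of -0.025 (SE 0.21) and 0.68 (SE 0.47). Those of Zfp292 and Zfp365 were -0.17 (SE 0.16) and -0.18 (SE 0.34).

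Of 6 KRAB genes listed for a described target, 3 were members and 0 passed the test. Zfp809, which silences retroviral DNA through its primer binding site, had 1114 and 769 after 8 h against 814 and 690 untreated. Zfp445, which protects imprints, had 1114 and 1294 after 8 h against 1178 and 1347 untreated. Zfp568, a repressor of a placental Igf2 transcript, had 342 and 288 after 8 h against 311 and 90.2 untreated, the untreated libraries lying far apart. Zfp57, Zfp708 and Zfp932 did not reach the level.

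The other genes of the KRAB silencing pathway were centred near 0 as well. Of 25 listed symbols 24 were tested, Fam208a being an older name of the listed Tasor, and 0 passed the test in either comparison. Their median log2 difference was 0.034 for 8 h minus untreated and 0.018 for 4 h minus untreated, with 14 of 24 above the untreated mean after 8 h and 12 of 24 after 4 h. Trim28, the co-repressor shared by KRAB proteins, had 1858 and 1766 after 8 h against 1687 and 1445 untreated, a log2 difference of 0.21 (adjusted p 0.924 by limma). Setdb1, the methyltransferase recruited by it, had 167 and 222 untreated, 130 and 133 after 4 h and 266 and 209 after 8 h. Dnmt3b, a DNA methyltransferase, had 38.1 and 20 after 8 h against 71.1 and 82.6 untreated.

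Neighbouring members did not share a direction in most clusters. The cluster of 9 KRAB genes on chromosome 17 from Zfp51 to Zfp943 had a median log2 difference of 0.39 for 8 h minus untreated and 0.51 for 4 h minus untreated. It held Zfp53 (1.20) and Zfp229 (-0.93) at 8 h, and 4 of its genes had both 8 h libraries above the untreated ones (background 16.5%) and 1 had both below (background 17.3%). The cluster was picked out after its values were seen, and 0 of its genes passed the test. The 8 KRAB genes on chromosome 13 from Zfp595 to Zfp65 had a median of -0.38 at 8 h and ranged from -1.16 for Zfp595 to 1.08 for Zfp729a. The libraries of Zfp729a overlapped, with 234 and 92.9 after 8 h against 42 and 113 untreated, and its difference was 0.38 without untreated library a and 1.79 without untreated library b. The 3 KRAB genes on chromosome 8 from Zfp868 to Zfp866 had a median of -0.96 at 8 h, against 0.19 at 4 h, and Zfp866 was at 0.14 at 8 h. On chromosome 18 Zfp397, Zfp24 and Zfp35, a cluster without the KRAB pattern, were all above the untreated mean. Their medians were 0.21 at 8 h and 0.47 at 4 h, but the libraries of Zfp24 and Zfp35 overlapped the untreated ones at both times. The clusters on chromosomes 13, 8 and 18 were likewise picked out by their values, and no gene in them passed the test. In the other 9 clusters the 8 h median lay between -0.30 and 0.18.

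**Figure D5:**
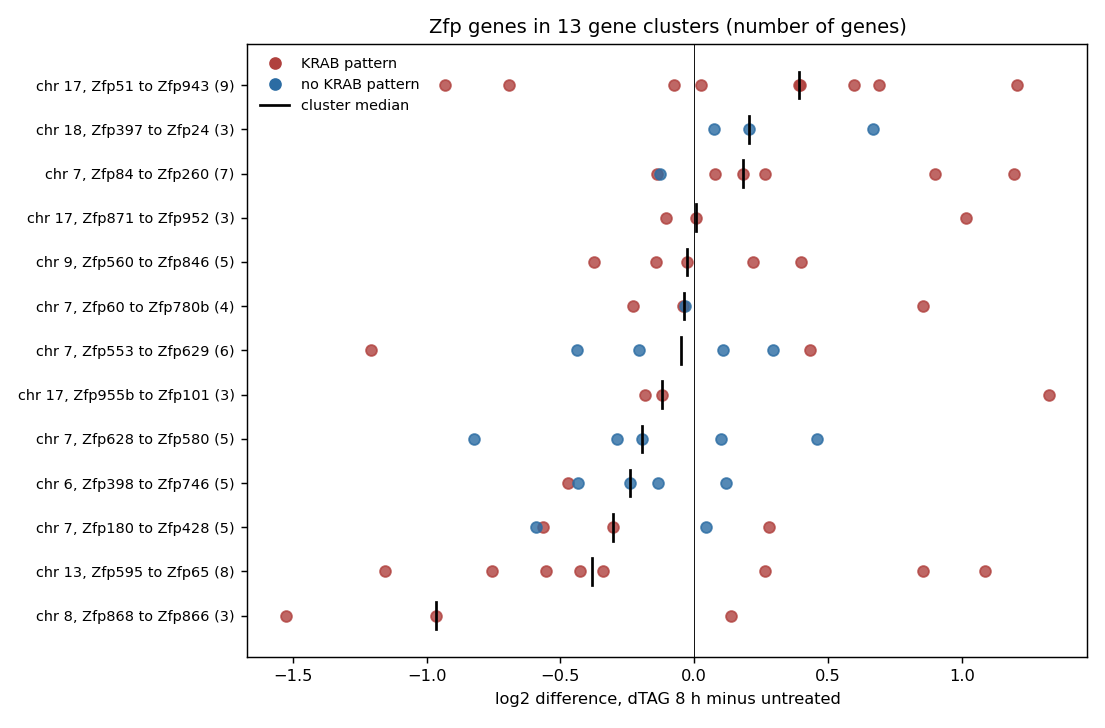
Log2 difference for 8 h minus untreated (x axis) of the 66 Zfp genes in 13 clusters (rows, named by chromosome and by first and last gene, with the number of genes), red for KRAB genes and blue for the others, with a bar at the cluster median. The medians run from 0.39 to -0.96, and most clusters hold genes on both sides of 0.

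Overlap in sequence with other genes was counted as exact stretches of 75 bases shared between annotated transcripts. Inexact matches and introns were not counted, and the part of shared reads in the differences was not tested. Whole transcripts were searched, while the paper describes sequencing of transcript ends and the labels another library kit. The percentages therefore need not equal the share of reads affected. In 116 members no stretch of 75 bases was shared with a transcript of another gene, and in 12 more than 10% of the stretches were shared. Between members of 1 cluster the overlap was largest for Zfp974 with Zfp780b, at 9.74% of the stretches of Zfp974. Zfp869 shared 5.21% of its stretches with Zfp868, and both had 8 h libraries below the untreated ones.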

How the data were processed

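Nascent RNA was measured in 6 libraries, 2 per group, and grouped by the agent named in the labels. Labels and methods differ on the library kit and on the aligner. Per the labels the reads were processed with BWA, SAMtools and DESeq2 on mm10. The paper names STAR and featureCounts for these reads, and BWA for its ChIP-seq and ATAC-seq. Which aligner made the deposited values was not determined. The authors deposited, for each of 2 tables, the mean over 4 libraries of numbers divided by DESeq2 size factors, a normalised signal with no values per library. The paper reports that counts were normalised with ERCC spike-in RNA, and how the size factors relate to this is not stated. The other columns and the 4 further lists hold the authors' own comparisons (log2 fold changes, errors and p-values) and were not used. No column of per-sample values was left out (0).

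The whole number of each library was recovered as the only set of 6 found to give both means of a gene. The search covered sets near equal normalised values in the libraries, and sets further off were not searched. The untreated pair was identified as the pair common to both tables, so replicate numbers stayed unknown. Of 23783 genes with a mean above 0, 23593 had 1 solution, including all 192 members. A further 190 genes, all with a mean of at least 11236, had more than 1 and entered only the read totals. The largest relative residual was 6.4e-15. In 4 libraries the numbers had been multiplied by up to 1.56 before rounding, and reads were obtained by taking this factor out. Recovery and fits were tested on simulated data.

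Values were put on the scale of the 4 h table. Limma 3.58.1 in R 4.3.3 (trend, all 6 libraries, log2(value + 1), 14077 genes with a mean of at least 10 in both tables) gave differences and Benjamini-Hochberg adjusted p at a threshold of 0.05. A fold on this scale understates changes of low genes. Protein features come from translated GENCODE M21 coding sequences instead of a protein table. Genes named in the text are Zfp944, the 8 largest differences in each direction per comparison among members whose libraries did not overlap, the 5 most abundant members, those next to the limit of 100 and the members of role lists; Chd4, Dnmt3b, Setdb1 and Trim28 were picked from the pathway list after their values were seen. Members and lists were chosen with earlier results of these data known. Alternatives changed the pseudocount, centring, filter or fit, or left out a library.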

Additional observations from a re-analysis of the deposited data

Results flagged for a closer look

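Zfp518a lay on opposite sides of the untreated libraries at the 2 times, which marked it for a closer look. Its libraries had 210 and 206 in untreated cells, 366 and 472 after 4 h and 151 and 145 after 8 h, so that both 4 h libraries lay above and both 8 h libraries below the untreated pair. The log2 difference for 8 h minus 4 h was -1.48 with an SE of 0.35, and limma gave an adjusted p of 0.996. The same order or its reverse was found in 4 of 192 members (2.08%) and in 271 of 14077 genes tested (1.93%).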

How the results depend on the processing

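The counts of 0 members called at 8 h, at 4 h and between the treated groups held under each of the 13 alternatives run that gave a value, including limma-voom, which was added after seeing the data. Over all genes, limma without the trend called 40 at 4 h and 31 at 8 h where the main test called 0, and the cause was not tested. Leaving out 1 library at a time, the median member difference ranged from -0.041 to 0.056 at 4 h (the highest without 4 h library b) and from -0.046 to 0.0032 at 8 h (the lowest without untreated library b), and that of Zfp944 at 8 h from -2.23 to -1.30 (without 8 h library b and without 8 h library a). Of 128 differences of named genes, 75 kept 1 sign under every alternative run. No paired analysis was possible because the recovered libraries carry no replicate numbers. With 2 libraries per group and 12 to 6415 reads per member and library, the typical SE of a member's log2 difference was 0.39.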

Other observations

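Besides Zfp518a, the members whose 4 h and 8 h libraries lay on opposite sides of the untreated pair were Zfp46, Zfp52 and Zfp945, chosen for this after their values were seen. Zfp945 had 307 and 252 in untreated cells, 368 and 327 after 4 h and 234 and 152 after 8 h. Zfp52 had 202 and 161 in untreated cells, 142 and 133 after 4 h and 222 and 253 after 8 h. Zfp46 had 528 and 544 in untreated cells, 646 and 616 after 4 h and 483 and 437 after 8 h. None of the 8 h minus 4 h differences of these genes passed the test (adjusted p 0.996, limma).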
